A study of Homo sapiens with 18 samples.

Results

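Oxidative phosphorylation is the process by which mitochondria pass electrons from nutrients to oxygen and use the energy to make ATP. The genes for its 5 enzyme complexes were described here in human embryonic stem cell-derived pancreatic progenitors. Genes were chosen by symbol, as the subunits of complexes I to V that the nuclear genome encodes and the proteins that the mitochondrial genome encodes. This gave 92 of the 21944 genes listed. Of these, 77 were nuclear subunit genes, 13 were the mitochondrial mRNA genes and 2 were nuclear copies of subunit genes, the retrogene *UQCRHL* and the pseudogene *ATP5F1AP3*. The symbols as spelled in the deposited table matched 79 of the 92, because the table writes mitochondrial genes without the MT- prefix. Some also have another name there, such as *CYTB* for *MT-CYB* and *COX1* for *MT-CO1*. The 13 mitochondrial genes were therefore found by their Ensembl identifiers and carry their MT- names here.

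Pancreatic progenitors at day 19 of differentiation were detached with accutase, reseeded on laminin-411 (LN411) or fibronectin (FN), both extracellular matrix proteins, and harvested after 3, 6 or 24 h. This made 6 groups of 3 samples, 18 in all: FN at 3 h, FN at 6 h, FN at 24 h, LN411 at 3 h, LN411 at 6 h and LN411 at 24 h. No genotype or drug set the groups apart. The labels give the cell line as HUES4, while the growth protocol names NGN3-GFP reporter cells derived from SA121, and both are human embryonic stem cell lines. The study describes the sequenced progenitors as NGN3-GFP-derived and the samples of a group as biological replicates. Polyadenylated RNA was sequenced. The values used are the authors' mean normalized counts over all samples, so they describe progenitors on both matrices and at all 3 times together. The comparison of LN411 with FN was not analysed here. A mean over all samples has no replicate values, so no error, interval or test accompanies the levels, and the depth of each library is unknown.

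The cells were checked against marker genes. Of 11 markers of pancreatic progenitors, 10 were listed and 9 had a mean normalized count of at least 100, among them *PDX1* at 12933, *SOX9* at 20672, *NKX6-1* at 3040 and *GP2* at 135959. *PTF1A* was at 12.5. Of 7 endocrine markers, 4 reached 100, with *CHGA* at 4312 and *NEUROG3* at 451, while *INS* was at 8.32 and *GCG* at 16.3. Markers of other cell types were also present: *APOA1* was at 13608 and *ALB* at 639.9 (hepatocyte), *CDX2* at 3556 and *LGALS4* at 54.1 (intestine), and *COL1A1* at 4091, *PDGFRA* at 868 and *COL3A1* at 320.1 (mesenchyme). Of 3 pluripotency markers, *DPPA4* alone was listed, at 374. Both endothelial markers were under 100, and *PTPRC*, which marks blood cells, was not listed. The part of such other cells in the levels below was not tested.

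Complexes I to IV form the respiratory chain. Complex I takes electrons from NADH and complex II from succinate, complex III passes them to cytochrome c, and complex IV passes them to oxygen. Complexes I, III and IV pump protons across the inner mitochondrial membrane, and complex V, the ATP synthase, lets protons flow back and makes ATP. Complex II is built from nuclear genes alone, whereas the other complexes join nuclear subunits with subunits made inside the mitochondrion. Mitochondrial DNA is transcribed into long precursors from both strands, and the precursors are then cut into separate messages and ribosomal RNAs.

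Both sets of genes ranked high among all genes, and the mitochondrial set ranked higher. Levels of different genes were compared as mean normalized count per kilobase (kb) of the canonical transcript in GENCODE. On this scale the median of the 13 mitochondrial genes was 97972 per kb and that of the 77 nuclear genes was 2989 per kb, against 115 per kb for all genes with a transcript length. The mitochondrial median was 32.8 times the nuclear one. The sets did not overlap: the lowest mitochondrial gene, *MT-ATP8* at 31051 per kb, was 1.45 times the highest nuclear gene, *ATP5F1B* at 21468 per kb. In counts without regard to length, the mitochondrial messages made up 2.64% of the sum over all genes and the nuclear messages 0.669%, a ratio of 3.95.

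The choice of length mattered for the size of this gap. In 12 of the 77 nuclear genes the canonical transcript was over 5 times as long as its coding part. Divided by coding length instead, the nuclear median was 8396 per coding kb, and the mitochondrial median was 11.7 times as high. The order of the medians was the same under each of the lengths tried. By coding length, however, the sets overlapped, since *COX7C*, a complex IV subunit, was at 61972 and *MT-ATP8* at 31508 per coding kb.

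All 13 mitochondrial genes lay above the 99th percentile of all genes per kb. They filled 10 of the 20 highest places, with *MT-CO1* in place 3, *MT-CO2* in place 4 and *MT-ND4* in place 5. Of the 77 nuclear genes, 74 lay above the median of all genes, 70 above the 75th percentile, 57 above the 90th and 37 above the 95th. Their median percentile was 94.7.

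**Figure D1:**
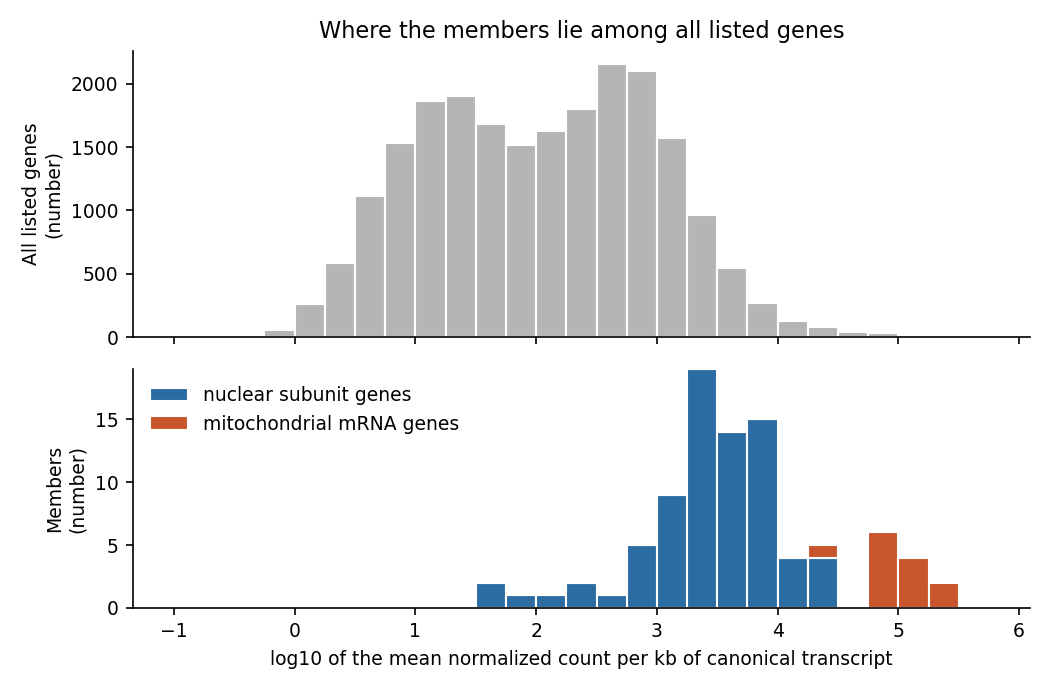
Histograms of the log10 of the mean normalized count per kb of canonical transcript, for all listed genes (upper panel, grey) and for the members (lower panel, nuclear in blue and mitochondrial stacked in orange). The 77 nuclear genes spread from 42.3 to 21468 per kb on the right of the distribution, and the 13 mitochondrial genes lie near its right end, from 31051 to 182329 per kb, with other genes among them and 2 genes above all of them.

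The nuclear genes varied far more among themselves than the mitochondrial ones. The standard deviation over genes of the log2 level per kb was 1.86 for the nuclear set and 0.68 for the mitochondrial set. From the lowest to the highest gene, the nuclear levels covered a 508-fold range and the mitochondrial levels a 5.87-fold range. The nuclear range was smaller when genes with few countable positions, a measure defined below, were left out. It was 235-fold over the 67 genes with at least 50% of such positions, and 84.0-fold over the 47 genes with over 90%. By coding length it was 1147-fold over all 77. These spreads are between genes, and are not replicate errors.

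Among the nuclear genes the complexes differed in their typical level. Complex IV had the highest median, 7685 per kb over 11 genes, followed by complex V with 5381 per kb over 17 genes, complex III with 2473 per kb over 9 genes, complex I with 2271 per kb over 36 genes and complex II with 1799 per kb over 4 genes. Per kb of canonical transcript, the medians of complexes II, I and III lay close together beside the spread of genes within each. By coding length these medians were 3632, 4681 and 13479 per coding kb, and complex III lay near complex V at 14031. By longest transcript or by the union of exons, complex I rather than complex II had the lowest median. Complex IV stayed highest under every length tried. In summed counts, complex V held 37.6% of the nuclear total, complex I 25.9%, complex IV 21.8%, complex III 11.99% and complex II 2.78%.

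**Figure D2:**
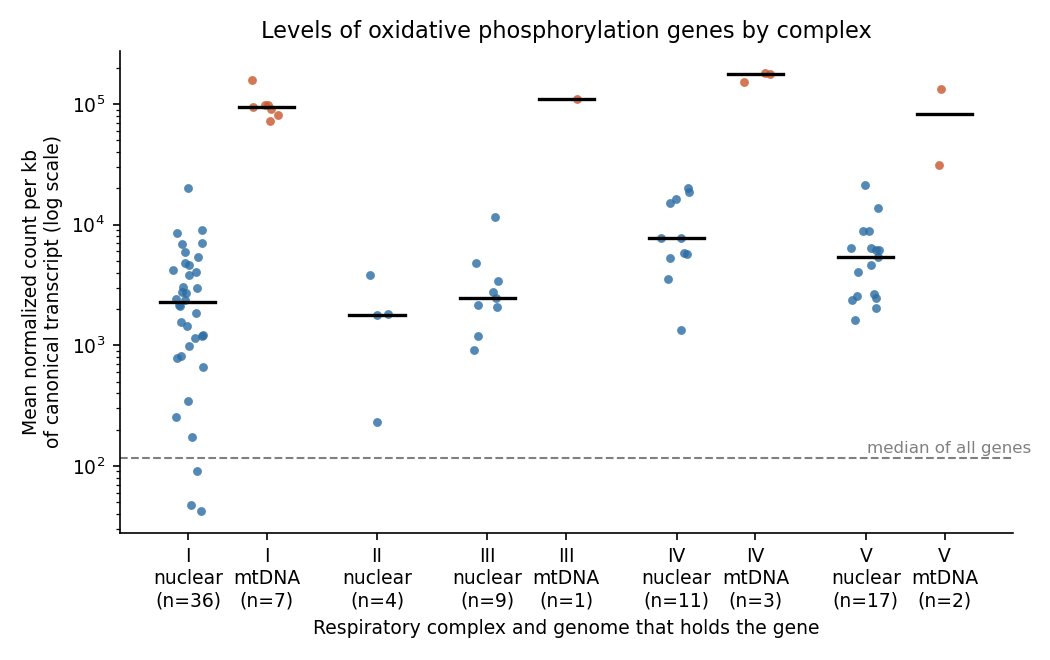
Each point is a gene, placed by its complex, by the genome that holds it (blue, nuclear; orange, mitochondrial DNA) and by its mean normalized count per kb on a log axis; black bars are medians and the dashed line is the median of all genes, 115 per kb. In each complex with both kinds of gene the mitochondrial points lie above all nuclear points, and complex I holds the lowest nuclear points.

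Within each complex that draws on both genomes, the mitochondrial median lay above the nuclear one. The ratio was 41.3 in complex I, with 7 mitochondrial genes, and 44.2 in complex III, where *MT-CYB* is the only mitochondrial gene. It was 23.3 in complex IV, with 3 mitochondrial genes, and 15.3 in complex V, with 2. By coding length the ratios were 20.1, 8.11, 9.35 and 5.90 in the same order.

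Complex I joins 7 core proteins from mitochondrial DNA with nuclear core proteins, which carry the flavin and the iron-sulfur clusters, and with many accessory subunits around them. The 7 nuclear core genes had a median of 1208 per kb and the 29 accessory genes one of 2405 per kb. By coding length the medians were 1364 and 6003 per kb. Per kb of countable positions, defined below, they were 2323 over the 6 core genes that had any and 3803 over the 29 accessory genes. Among the core genes, *NDUFS8*, an iron-sulfur subunit, was highest at 3054 per kb. *NDUFV2*, another iron-sulfur subunit, was lowest at 47.1 per kb, from a mean normalized count of 40.3. *NDUFS1*, the largest core subunit, was at 173 per kb of a canonical transcript of 11660 bases, and at 925 per coding kb. Among the accessory genes, *NDUFS5* was highest at 20185 per kb, from a count of 9992, and *NDUFA7* lowest at 42.3 per kb, from a count of 24.5. *NDUFA7* and *NDUFV2* were the only nuclear subunit genes with a count under 100. *NDUFAB1*, the mitochondrial acyl carrier protein that is also a complex I subunit and that the symbol rule does not take, was at 3912 per kb.

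Complex II, succinate dehydrogenase, also works in the citric acid cycle. *SDHC*, a membrane anchor, was highest at 3851 per kb, and *SDHD*, the other anchor, was at 1825 per kb. *SDHB*, the iron-sulfur subunit, was at 1772 per kb. *SDHA*, the flavoprotein with the succinate site, was lowest at 230 per kb, from a count of 618. The 4 proteins are present in equal number in the complex, while these levels covered a 16.8-fold range. The range was 32.01-fold per coding kb and 7.44-fold per kb of countable positions, which were few in *SDHA*, as described below.

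Complex III had *UQCRH*, the hinge protein, at 11624 per kb as its highest nuclear gene. *UQCRB* was lowest at 909.6 per kb of a canonical transcript of 8459 bases, but at 23107 per coding kb it was the highest nuclear gene of the complex, slightly above *UQCRH* at 22864. The catalytic subunits were *CYC1* (cytochrome c1) at 3389 per kb and *UQCRFS1* (the Rieske iron-sulfur protein) at 1202 per kb. The retrogene *UQCRHL*, an intronless copy of *UQCRH*, had a count of 166, which was 2.65% of that of *UQCRH*, and was at 600.05 per kb. That level rests on a canonical transcript of 276 bases, while the longest transcript of *UQCRHL* has 2180. Whether reads of *UQCRH* entered the count of *UQCRHL* was not tested. The pseudogene *ATP5F1AP3* had a count of 12.5 and was the only member not listed at all 3 times. Cytochrome c itself, *CYCS*, was at 1644 per kb.

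Complex IV, cytochrome c oxidase, had *COX4I1* at 20273 per kb as its highest and *COX7B* at 1331 per kb as its lowest nuclear gene. *COX7C*, *COX7A2* and *COX6B1* followed *COX4I1*, at 18621, 16461 and 15243 per kb. *NDUFA4*, a subunit first assigned to complex I, was at 5719 per kb.

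In complex V, *ATP5F1B*, the catalytic beta subunit (chr12:56638175-56645984 of hg38), was the highest nuclear gene of all with a count of 37762. *ATP5F1A*, the alpha subunit, followed by count with 26878, and was at 4666 per kb. Together these genes made up 18.2% of all nuclear subunit counts. The assembled head of the enzyme holds alpha and beta in equal number. The other subunits of F1, the part of the enzyme that includes this head, were lower per kb than *ATP5F1B*. They were *ATP5F1C* (gamma) at 6455, *ATP5F1D* (delta) at 2022 and *ATP5F1E* (epsilon) at 1628 per kb. *ATP5F1E* was also the lowest nuclear gene of the complex, and per coding kb it stood at 38413, above *ATP5F1B* at 23795.

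The ring of subunit c, which turns as protons pass, is encoded by 3 nuclear genes. Their mature proteins are the same and only the leading parts that direct import differ. The last 75 codons before the stop were identical in protein in each pair of genes, while 25 of 225 bases differed between *ATP5MC1* and *ATP5MC2*, and 42 differed between *ATP5MC3* and either of the others. The first 90 of these 225 bases are shown from the GENCODE transcripts, 5′ to 3′, with capitals at the 19 positions where the 3 genes are not all alike, because within this part they alone assign a read to a gene.
ATP5MC1: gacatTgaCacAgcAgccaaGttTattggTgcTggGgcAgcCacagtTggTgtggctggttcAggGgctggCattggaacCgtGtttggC
ATP5MC2: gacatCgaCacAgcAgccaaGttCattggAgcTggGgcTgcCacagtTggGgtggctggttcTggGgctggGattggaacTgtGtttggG
ATP5MC3: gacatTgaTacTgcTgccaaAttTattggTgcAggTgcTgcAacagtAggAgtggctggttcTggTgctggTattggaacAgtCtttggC

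The counts were 1669 for *ATP5MC1*, 8736 for *ATP5MC2* and 10557 for *ATP5MC3*. Per kb of canonical transcript *ATP5MC2* held 67.5% of the summed level, *ATP5MC3* 19.9% and *ATP5MC1* 12.6%. *ATP5MC1* was the lowest under each length tried. Which gene was highest depended on the length: by coding length *ATP5MC3* held 50.04% and *ATP5MC2* 41.7%.

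**Figure D3:**
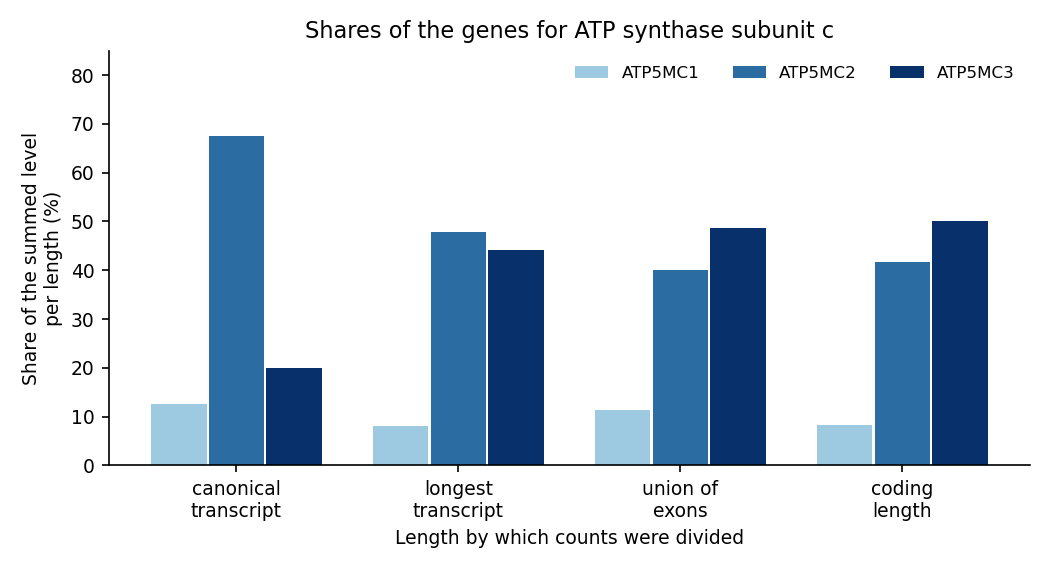
Bars give the share (%) of the summed level per length that came from each of the 3 genes for subunit c, under 4 definitions of gene length. *ATP5MC1* is lowest in each group of bars, between 8.14% and 12.6%, and the order of *ATP5MC2* and *ATP5MC3* changes with the length used.

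Among the mitochondrial genes, the messages of complex IV were the highest as a group, with *MT-CO1* (chrM:5904-7445) at 182329, *MT-CO2* at 179204 and *MT-CO3* at 153070 per kb. These encode the catalytic core of cytochrome c oxidase. Of the complex I genes, *MT-ND4* was highest at 158224 per kb and *MT-ND1* lowest at 72959 per kb. Between them were *MT-ND3* at 97972, *MT-ND6* at 97959, *MT-ND5* at 93788, *MT-ND2* at 90602 and *MT-ND4L* at 80805 per kb. *MT-CYB*, the cytochrome b of complex III, was at 109294 per kb. *MT-ATP6*, which forms the proton path of the ATP synthase, was at 133411 per kb and *MT-ATP8* at 31051 per kb.

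**Figure D4:**
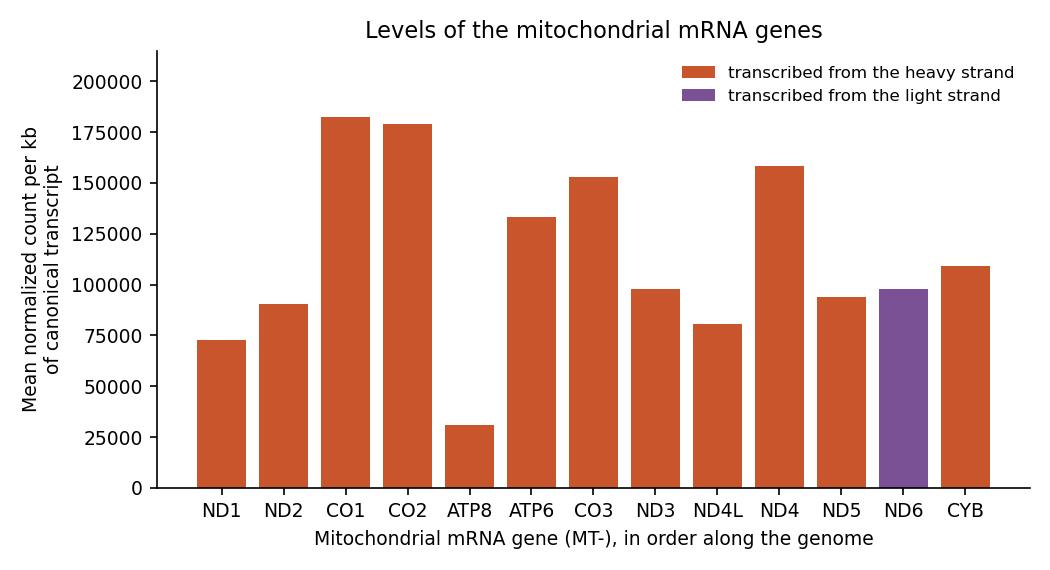
Bars give the mean normalized count per kb of the 13 mitochondrial mRNA genes in their order along the mitochondrial genome (orange, transcribed from the heavy strand; purple, *MT-ND6*, transcribed from the light strand). *MT-CO1* and *MT-CO2* are the tallest bars, at 182329 and 179204 per kb, and *MT-ATP8* is the shortest, at 31051 per kb.

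Some neighbouring mitochondrial genes share a message and overlap. *MT-ATP8* and *MT-ATP6* are cut out as a single RNA and share 46 bases, and *MT-ND4L* and *MT-ND4* share 7. The stretch around the first overlap (chrM:8507-8592 of hg38, plus strand) is shown with the shared bases in capitals, since a read that touches them belongs to both genes.
MT-ATP8/MT-ATP6: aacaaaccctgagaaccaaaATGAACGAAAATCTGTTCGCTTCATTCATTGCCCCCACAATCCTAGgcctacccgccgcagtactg
By the counting mode that the authors used, a read that overlaps more than 1 gene is not counted. Of the 207 positions of *MT-ATP8*, 42.0% had a 75-base window that was unique in the genome and touched no other gene. Each position took the window that starts at it. Positions too near the end for a full window took the last window, which weighs more in short genes. Divided by these positions only, *MT-ATP8* stood at 73880 and *MT-ATP6* at 217872 per kb. The counts of the pair were 6428 and 90853.

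*MT-ND6* is the only one of the 13 messages transcribed from the light strand, and it is known for lacking a poly(A) tail. The sources used here do not say whether counting took strand into account, and the named library kit does not mark strand. Without strand, reads from *MT-ND6* and from RNA of the opposite strand cannot be told apart, so its level of 97959 per kb is uncertain.

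Stretches of mitochondrial DNA have been copied into the nuclear genome, and reads from the copies and from the mitochondrion can be hard to separate. The table listed 11 nuclear copies of mitochondrial mRNA genes by symbol, of which 8 had a count under 100. The 3 with the highest counts lie in a single block of chromosome 1. *MTATP6P1* (chr1:633696-634376) had a count of 19160, which was 21.1% of that of *MT-ATP6*, and *MTND2P28* (chr1:629640-630683) had 4021, which was 4.26% of that of *MT-ND2*. *MTCO1P12* (chr1:631074-632616) had 273, or 0.0971% of *MT-CO1*. *MTATP6P1* and *MT-ATP6* differ at 10 of 681 bases. A stretch of 120 bases with 4 of these differences, in capitals, is shown because such bases alone assign a read to either copy. The first line is chrM:8599-8718 and the second chr1:633768-633887, both on the plus strand of hg38.
MT-ATP6: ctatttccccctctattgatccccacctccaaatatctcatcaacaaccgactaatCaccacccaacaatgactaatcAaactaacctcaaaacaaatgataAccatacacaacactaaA
MTATP6P1: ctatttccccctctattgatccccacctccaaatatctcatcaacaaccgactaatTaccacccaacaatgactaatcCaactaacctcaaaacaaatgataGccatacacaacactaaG

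The longest run of bases that the pair shares was 141, and a 75-base window within it has no unique place. The longest shared run was 245 bases between *MT-CO1* and *MTCO1P12* and 266 bases between *MT-ND2* and *MTND2P28*. Among the 13 mitochondrial genes, the share of positions whose 75-base window occurs at a single place in the genome was lowest for *MT-CO1*, at 60.3%. Next came *MT-ND2* at 68.04%, *MT-ATP6* at 75.04%, *MT-ND1* at 76.5%, *MT-CO3* at 86.5% and *MT-CO2* at 90.6%. In the counting mode that the authors used, a read that matches more than 1 place equally well is not counted. Divided by positions with unique windows that touch no other gene, *MT-CO1* stood at 302313 per kb and was again the highest, followed by *MT-ATP6* at 217872, *MT-CO2* at 197703, *MT-CO3* at 177263 and *MT-ND4* at 159032 per kb. *MT-ND2* stood at 133156 and *MT-ND1* at 95415 per kb on that scale, and *MT-ND5*, at 93944 per kb, was then the lowest of the complex I genes.

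The same measure was taken for the nuclear genes. A position of the canonical transcript was termed countable when its 75-base window was unique in the genome and touched no exon of another annotated gene on either strand. A window across an exon junction with no exact match in the genome was also taken as unique. Of the 77 nuclear genes, 28 were fully countable, 33 overlapped another gene and 29 had a window that occurs elsewhere. In 10 genes less than 50% of positions were countable. These were *NDUFV2* (0%), *NDUFA13* (15.7%), *NDUFA7* (22.1%), *SDHA* (25.1%), *NDUFB8* (28.02%), *NDUFS7* (29.2%), *NDUFA11* (31.3%), *COX6A1* (35.8%), *ATP5PO* (36.2%) and *NDUFA2* (49.8%). This list was made after the values were seen.

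The 5 nuclear genes with the lowest counts were all among these 10, but of the 10 with the lowest counts only 6 were. They were *NDUFA7* with 24.5, *NDUFV2* with 40.3, *NDUFA13* with 181, *NDUFS7* with 499 and *SDHA* with 618. The median count was 800.3 over the 10 genes and 3866 over the other 67. Of the 5 genes lowest per kb, 3 were among the 10, and the other two, *NDUFA9* at 91.3 and *NDUFS1* at 173 per kb, were 84.9% and 85.9% countable. Per kb of canonical transcript, the median of the 10 genes was 0.277 times that of the others. Per kb of countable positions it was 1.36 times that of the others, 5170 against 3803, over the 9 genes that had any. The 10 genes were chosen for having few such positions, so dividing by them raises their levels more by construction. The change in the ratio therefore does not show what the overlaps did to the counts. The annotation used for this measure, GENCODE v44, is later than the v32 of the authors' counts, so overlaps may differ between them.

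The overlapping genes differed from member to member. Of the 857 bases of *NDUFV2* (chr18:9102630-9134345), 771 lay in exons of the long noncoding gene ENSG00000265257 on the same strand. That gene was not among the genes listed, so it has no count here. *SDHA* shared 1870 bases with the protein-coding gene ENSG00000286001, which had a count of 27.5. *NDUFA7* shared 452 bases with ENSG00000167774, also not listed, on the same strand and 68 with the ribosomal protein gene *RPS28* on the opposite strand. *NDUFA13* shared 437 bases with ENSG00000258674, which had a count of 43.0. The overlaps of *NDUFS7*, of 283 and 106 bases, were with noncoding genes on the opposite strand, and those of *NDUFA2* were on the opposite strand too. Only in a library that marks strand, with counting by strand, would these 2 genes be fully countable and leave the group of 10. The named library kit does not mark strand. The low levels of *NDUFV2*, *NDUFA7*, *NDUFA13*, *NDUFS7* and *SDHA* are therefore uncertain, and the part of the overlaps in them was not tested.

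**Figure D5:**
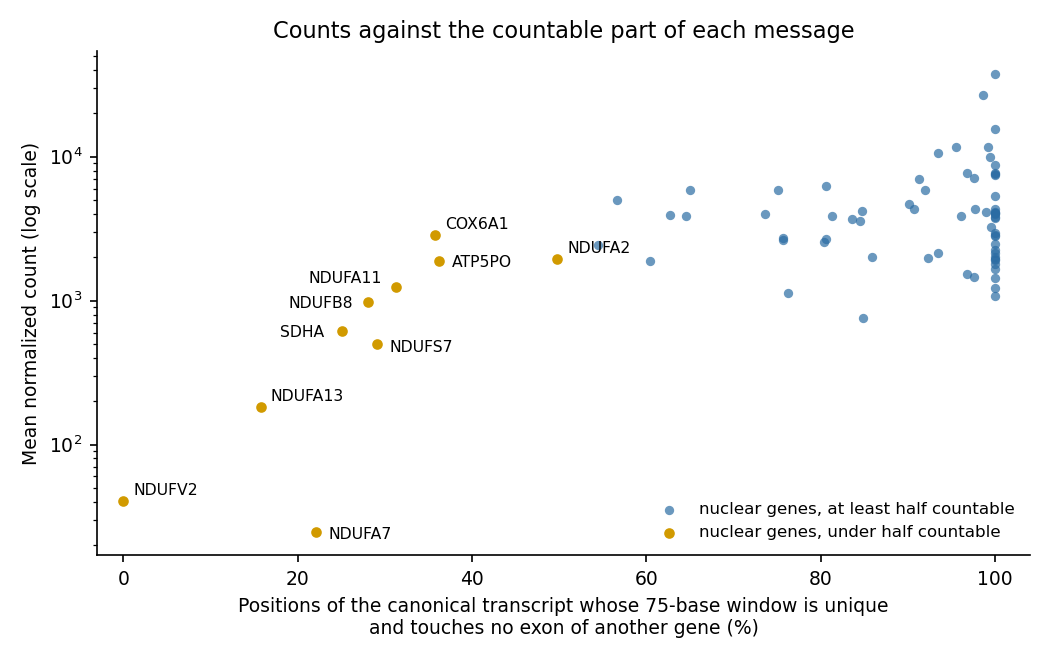
Each point is a nuclear subunit gene, placed by the countable share of its canonical transcript (%) and by its mean normalized count on a log axis; the 10 genes under 50% are in yellow and named. The 5 lowest counts, from 24.5 to 618, belong to genes under 50%, and all 67 other genes have counts of at least 763.

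Tissue forms of subunits were low or not listed. Of 8 tissue isoforms and related genes, *COX4I2*, *COX6A2* and *COX8C* were not listed. *COX6B2*, known from testis, was at 13.6 per kb against 15243 per kb for *COX6B1*, and *COX7A1*, the heart and muscle form, was at 35.5 per kb against 16461 per kb for *COX7A2*. *NDUFA4L2*, a relative of *NDUFA4* known to respond to low oxygen, was at 6.03 per kb. The other 2 had counts of at least 100. They were *COX7A2L*, which helps join complexes into supercomplexes, at 2764 per kb and *ATP5IF1*, the inhibitor of the ATP synthase, at 3118 per kb.

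All 9 listed regulators of mitochondrial gene expression were detected, and 8 had a count of at least 100. *TFAM*, which packs mitochondrial DNA and starts its transcription, had 5092, the mitochondrial RNA polymerase *POLRMT* 3386 and its partner *TFB2M* 1021. *LRPPRC* and *SLIRP*, which stabilise mitochondrial messages, had 12283 and 1995. Of the nuclear factors known to drive respiratory genes, *NRF1* had 989 and *GABPA* 1922. The coactivator *PPARGC1A* had 535, and its relative *PPARGC1B*, with 44.1, was the only one under 100. Of 45 assembly factors, which build the complexes without being part of them, all were listed and 43 reached 100. Their median was 564 per kb, below the nuclear subunit median of 2989 per kb. The 2 under 100 were *COX20* with 73.0 and *SCO2* with 7.47, named after their values were seen. Countable positions were not measured for the assembly factors, the regulators or the tissue isoforms. The part of overlaps with other genes in their low counts was not tested.

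Promoters of the nuclear genes were searched for the core letters of 3 motifs, on both strands: GCGCATGC, bound by NRF1, CCGGAAGT, bound by ETS factors such as GABPA, and ATGGCGGC, bound by YY1. RefSeq promoter sequences of GRCh38.p14, running from 250 bases before to 50 after the start, matched 63 of the 77 genes. The NRF1 letters were in 13 of the 63 (20.6%), against 4.88% of the 13198 promoters of genes in the table. The ETS letters were in 10 (15.9%) against 7.41%, and the YY1 letters in 12 (19.0%) against 5.27%. The YY1 letters can also be the start codon with its next bases. At least 1 of the motifs was in 29 of the 63 promoters (46.0%) and in 16.0% of those of listed genes. The median level was 5418 per kb in the 13 genes with the NRF1 letters and 2616 per kb in the 50 without. It was 3927 per kb with the ETS letters and 2750.4 per kb without. For the YY1 letters the order was the other way, 1951 per kb with and 2989 per kb without. These are matches of letters, and binding was not measured.

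Of the 6 promoters that held at least 2 of the 3 motifs, 2 are shown as examples. Their genes are not necessarily those with the highest levels per kb among the 6. The motifs are in capitals, so that their spacing can be seen. The first is that of *COX5B* (chr2:97645812-97646111, plus strand; 7685 per kb), a complex IV subunit, with 1 NRF1 match and 2 ETS matches. The second is that of *NDUFS6* (chr5:1801157-1801456, plus strand; 5418 per kb), a complex I accessory subunit, with 1 NRF1 match before the start and 1 YY1 match after it. That YY1 match begins with ATG, and its frame holds no stop codon up to the end of the stretch shown. It may therefore be the start codon with its next bases rather than a motif.
COX5B: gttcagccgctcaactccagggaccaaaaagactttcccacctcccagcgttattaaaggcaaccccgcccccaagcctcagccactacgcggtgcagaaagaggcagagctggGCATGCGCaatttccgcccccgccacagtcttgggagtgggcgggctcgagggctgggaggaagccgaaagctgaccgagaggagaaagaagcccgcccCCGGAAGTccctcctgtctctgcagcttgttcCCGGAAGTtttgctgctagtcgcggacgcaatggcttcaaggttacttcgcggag
NDUFS6: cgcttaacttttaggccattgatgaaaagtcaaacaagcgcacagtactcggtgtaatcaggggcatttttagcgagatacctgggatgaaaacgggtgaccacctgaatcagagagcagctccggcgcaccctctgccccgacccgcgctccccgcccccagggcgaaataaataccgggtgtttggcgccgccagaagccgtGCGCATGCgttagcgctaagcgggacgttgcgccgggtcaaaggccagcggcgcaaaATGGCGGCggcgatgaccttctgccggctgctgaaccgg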

How the data were processed

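Bulk RNA sequencing covered 18 samples. Per the labels and the study's methods, the authors selected poly(A) RNA, sequenced it, aligned with STAR 2.7.2d to hg38, counted reads per gene in STAR with GENCODE v32 and normalized with DESeq2 1.34.0. The deposited table's mean normalized count is the authors' signal per gene, scaled by size factors and averaged across the samples, and its value was the same at each time within rounding. The table also holds 5 columns of the authors' comparison of LN411 with FN (log2 fold change, its standard error, Wald statistic, p-value and adjusted p-value). These hold the study's findings and were not used.

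Counts were divided by transcript lengths from GENCODE v44 (Python 3.11.15, pandas 2.3.3), after matching Ensembl identifiers; 21861 of 21944 genes matched. Windows of 75 bases, a length chosen here because the read length is not given in the sources used here, were searched as exact matches on 25 chromosomes of hg38. The search was tested on simulated data. Named genes were all mitochondrial mRNA genes, the highest and lowest nuclear gene of each complex (core and accessory apart in complex I), members with counts under 100, subunit groups sharing a role, and lists of isoforms, regulators and copies; others are named for a stated reason. Members and lists were chosen with earlier results of these data known.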

Additional observations from a re-analysis of the deposited data

How the results depend on the processing

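The mitochondrial median lay above the nuclear median under every length tried, although single genes overlapped by coding length. The ratio of the medians, 32.8, was 53.2 by longest transcript, 81.5 by the union of exons, 36.6 by unique windows, 40.6 without *MT-ATP8*, *MT-ND4L* and *MT-ND6*, 11.7 by coding length and 27.7 by countable positions. The last pair of settings, here and for the ranges and complex I medians in the report, was chosen after seeing the data, as were the limits of 50% and 90% countable. The median percentile of the nuclear genes, 94.7, was 92.7 by longest transcript, 91.9 by the union of exons and 91.3 among the 13118 genes with a count of at least 100. Against those genes the mitochondrial share was 2.66% and the nuclear share 0.672%. The ratio of the highest to the lowest complex median, 4.27, was 4.997 by longest transcript and 5.35 by the union of exons, where complex I was lowest, and 3.59 by unique windows, 5.30 by coding length and 4.73 by countable positions, where complex II was. The standard deviation of log2 levels of nuclear genes within complexes, 1.67, was 1.602, 1.77, 1.68, 1.62 and 1.44 in that order of lengths. That of the mitochondrial genes, 0.68, was 0.80 by unique windows, 0.59 by countable positions and 0.46 without the 3 genes. By longest transcript the subunit c shares were 8.14% for *ATP5MC1*, 47.8% for *ATP5MC2* and 44.1% for *ATP5MC3*. They were 11.4%, 39.9998% and 48.6% by the union of exons, and 8.26%, 41.7% and 50.04% by coding length.

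No paired analysis was possible because the values used are a mean over all samples. Leaving out single replicates was not possible for the same reason. Depth per library is unknown, so no limit of detection is given. A per-kb level depends on which transcript the cells make, which was not measured. How poly(A) selection treats mitochondrial and nuclear messages was not tested.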

Other observations

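The mitochondrial ribosomal RNAs, which are not members, made up 0.445% of the summed mean normalized counts. *MT-RNR2* had a count of 209206, or 134192 per kb, which was 1.37 times the median of the mitochondrial mRNA genes. *MT-RNR1*, which comes from the same precursor, had 27588, or 28918 per kb, which was 0.295 times that median. Libraries were made from poly(A)-selected RNA, and the part of that selection in these values was not tested.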
